A study of Bos taurus with 31 samples.

Results

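The genes described are the nuclear genes for the subunits of the mitochondrial respiratory chain and ATP synthase, together with the assembly factors and related proteins that carry the same names. Members were taken by symbol: every row of the count table whose symbol starts with NDUF, UQCR or ATP5, starts with COX followed by a digit from 4 to 8 and a letter, or is *SDHA*, *SDHB*, *SDHC* or *SDHD*. This gave 89 of the 24616 deposited genes, of which 37 belong to complex I, 7 are complex I assembly factors, 4 belong to complex II, 8 to complex III, 14 to complex IV and 19 to complex V. The rule uses symbols and no measured values. All 89 had at least 20 reads summed over the cows and were tested, among 15916 genes in all. *COX6B1*, *COX6C*, *COX7C* and *COX8A*, further subunits of complex IV, were looked for and had no row under these symbols. Rows of unknown symbol were not matched. These subunits were not analysed here, and the sums of complex IV do not include them.

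The samples were liver biopsies of 31 lactating German Holstein cows, 1 RNA-seq library per cow, taken in week 16 of feeding. The cows received rations with 60% (HC) or 30% (LC) concentrate feed on a dry matter basis, and were fed either with feedstuffs that carried residues of the herbicide glyphosate (GLY) or with control feed (CON), in which traces of glyphosate were also present. There were 8 cows in CONHC, 8 in CONLC, 8 in GLYHC and 7 in GLYLC. The design asks whether the concentrate feed proportion (CFP) and glyphosate residues alter hepatic transcripts, and whether 1 factor alters the response to the other.

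The respiratory chain passes electrons from NADH (complex I) and from succinate (complex II) through ubiquinone, complex III and cytochrome c to oxygen at complex IV, and the proton gradient built up by complexes I, III and IV drives ATP synthesis by complex V. Complexes I, III, IV and V combine subunits from nuclear genes with subunits from the mitochondrial DNA, whereas complex II is made from nuclear genes alone. Hepatocytes are rich in mitochondria, which supply the ATP for gluconeogenesis and urea synthesis and oxidise fatty acids, and in ruminants the liver makes glucose mainly from propionate formed in the rumen.

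The libraries held 11675775 to 36675542 counted reads, of which the 89 members took 0.498% to 0.779%. The 14 hepatocyte markers summed to 149045 to 243605 CPM (reads scaled to the same library total) in every library, so the labelled tissue was borne out. Several libraries stood apart. GLYLC cow 912 had the highest sums of 10 intestinal markers (680 CPM, median of all cows 142 CPM) and 11 smooth muscle markers (1673 CPM, median 137 CPM). It was the highest cow for 15% of all genes tested, among them *HP*, the acute-phase protein haptoglobin (19491 CPM, median of all cows 324 CPM), and the fibrinogen genes *FGA* (26702 CPM, median 11122 CPM) and *FGB* (42252 CPM, median 20007 CPM), named after their values were seen. CONLC cows 166 and 103, GLYHC cow 127 and CONHC cow 123 had 2035 to 4764 CPM of 14 skeletal and heart muscle markers, against at most 560 CPM in each of the other 27 cows. Among marker lists, calls in HC versus LC (1.45% of all genes) fell on intestinal epithelium (3 lower: *MUC13*, *FABP2*, *OLFM4*), smooth muscle and pericytes (3 lower: *TAGLN*, *CNN1*, *KCNJ8*), macrophages (2 higher: *CD68*, *ADGRE1*) and epidermis (2 higher: *KRT1*, *KRT14*). *MUC13*, *FABP2*, *OLFM4*, *TAGLN* and *CNN1* were each highest in GLYLC cow 912, and the first 3 had 0 reads in 25, 24 and 21 cows. *KRT1* and *KRT14* had 0 reads in 22 and 17 cows and at most 4.66 and 0.669 CPM. Whether these calls hold without single cows was not tested. Calls on marker lists also occurred in GLYHC versus GLYLC (3 intestinal and 3 smooth muscle markers lower, 1 epidermal marker higher) and in GLYLC versus CONLC (2 intestinal markers higher). The shares of all genes called in these comparisons were 0.201% and 0.0628%. The part of the marker calls in the values of the members was not tested. Markers of hepatocytes, skeletal and heart muscle, lymphocytes, endothelium, bile duct, adipocytes and red blood cells had 0 calls there. In bulk tissue, a lower share of a cell type and less RNA per cell cannot be told apart.

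No member passed the test for CFP or for glyphosate. A gene was called at p under 0.05 and Benjamini-Hochberg adjusted p under 0.1 in edgeR's quasi-likelihood test over all 15916 genes. By this rule, 0 of 89 members were called in CONHC versus CONLC (0% of all genes), 0 in GLYHC versus GLYLC (0.201% of all genes), 0 in GLYHC versus CONHC (0% of all genes) and 0 in GLYLC versus CONLC (0.0628% of all genes). In the additive models and the interaction it was 0 in HC versus LC (1.45% of all genes), 0 in GLY versus CON (0% of all genes) and 0 in the interaction of GLY with CFP (0% of all genes).

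At an unadjusted p under 0.05, CONHC versus CONLC had 3 members lower and 0 higher (3.25% and 2.71% of all genes). The comparison GLYHC versus GLYLC had 2 lower and 1 higher (7.45% and 5.06% of all genes), and HC versus LC had 6 lower and 1 higher (7.81% and 5.88% of all genes). No member reached that p in GLYHC versus CONHC (1.31% of all genes lower, 1.6% higher), in GLYLC versus CONLC (1.94% lower, 3.71% higher), in GLY versus CON (1.45% lower, 2.48% higher) or in the interaction (2.31% lower, 1.9% higher). DESeq2 on all cows called 1 member, *NDUFB4*, in HC versus LC (2.73% of all genes). It called 0 members in CONHC versus CONLC (0.17% of all genes), GLYHC versus GLYLC (0.898%), GLYHC versus CONHC (0%), GLYLC versus CONLC (0.0251%), GLY versus CON (0.00628%) and the interaction (0.00628%). No member had groups that did not overlap in any of the pairwise comparisons (0.0188%, 0.0942%, 0.00628% and 0.00628% of all genes, in the order above).

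The intervals around these differences were narrow for most members. The 95% interval of the log2 fold change lay within ±0.5 for 79 of 89 members in CONHC versus CONLC, 81 in GLYHC versus GLYLC, 82 in GLYHC versus CONHC and 81 in GLYLC versus CONLC. With both treatments or both feeding levels in 1 additive model it lay within that range for 83 members in HC versus LC and for 83 in GLY versus CON. The median standard error (SE) was 0.11 in each pairwise comparison and 0.08 in both additive ones. The plot of differences by complex shows them around 0, with wide overlap of the intervals.

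**Figure D1:**
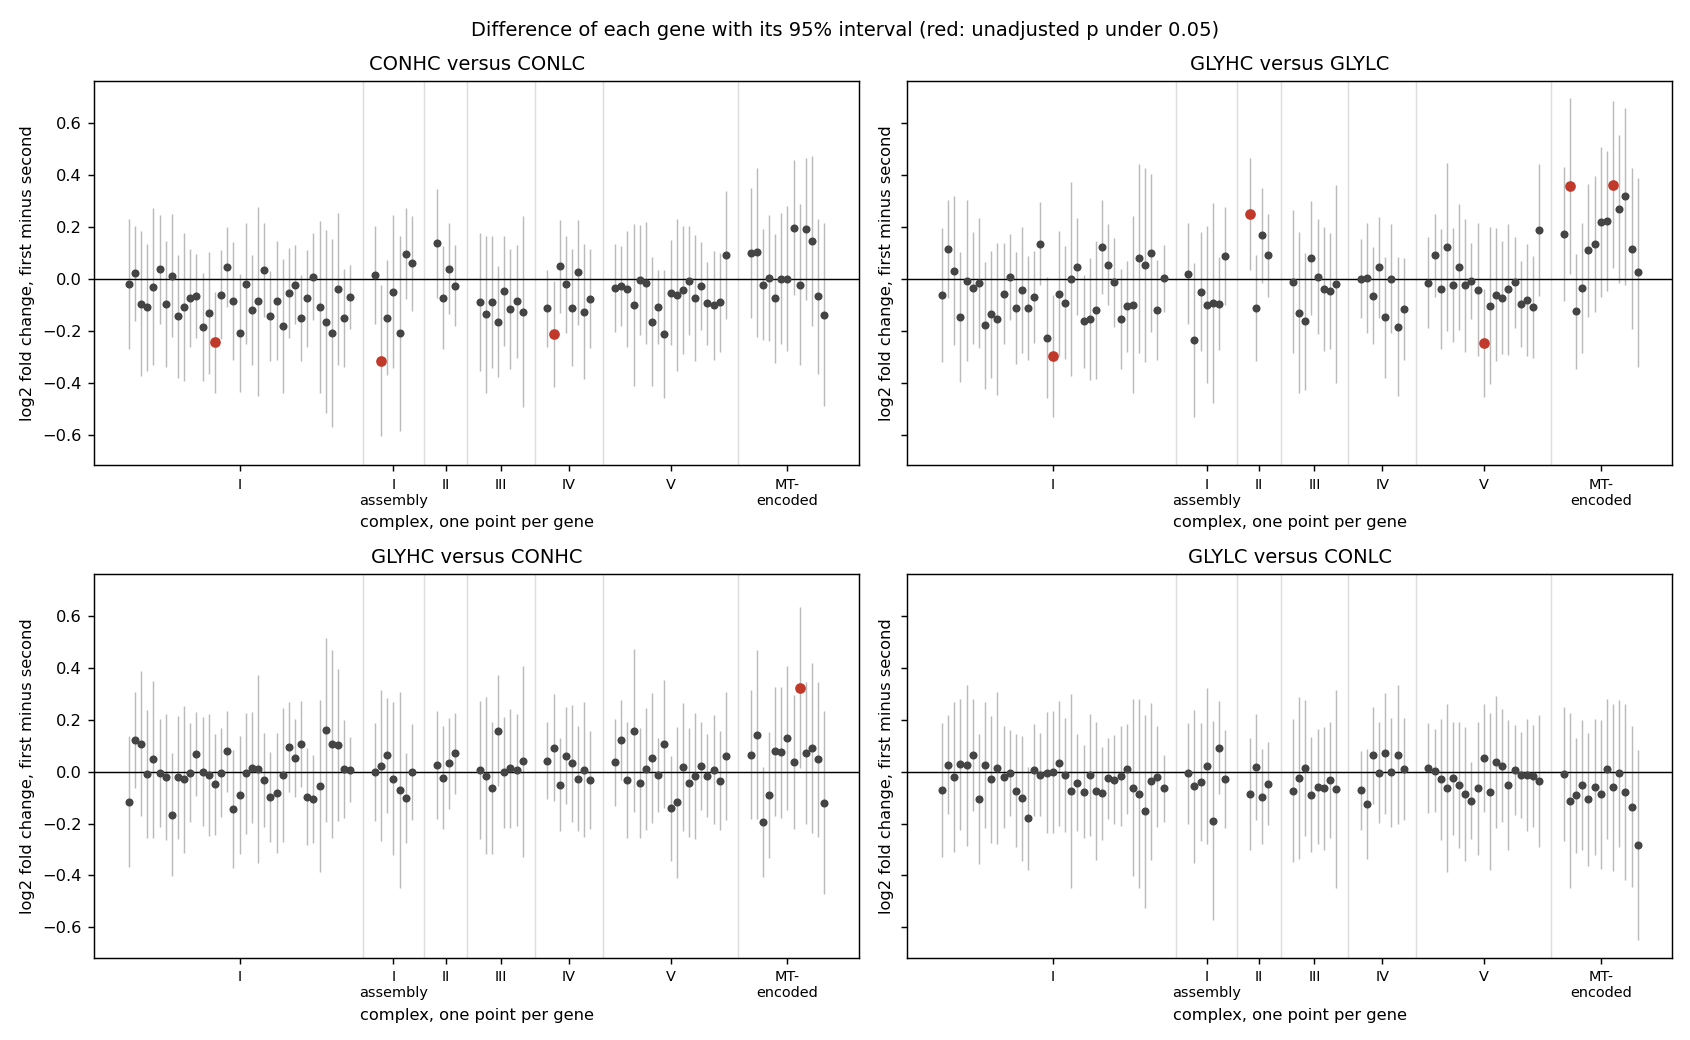
Log2 fold change of each gene (y axis, first minus second group) in the pairwise comparisons, grouped by complex along the x axis, with 95% intervals as bars and genes at an unadjusted p under 0.05 in red. The 6 members with the largest spread between cows (COX4I2, COX6A2, COX6B2, COX7A1, COX8B, NDUFA4L2) are left out, the remaining 83 lie between -0.31 and 0.25, and the 13 mitochondrially encoded genes are added at the right.

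By the sign of the fold changes per gene, small differences leaned to lower levels in the HC groups. In CONHC versus CONLC, 74 of 89 members had a log2 fold change below 0 (53.6% of all genes), with a median of -0.09 against -0.01 over all genes. In GLYHC versus GLYLC it was 60 of 89 (51.4% of all genes), with a median of -0.04 against -0.01. These comparisons share no cow, and 54 members were below 0 in both, 60.7% of the members and 31.5% of all genes. In the additive model 69 of 89 members were below 0 in HC versus LC (54% of all genes), with a median of -0.07. The summed CPM of the 89 members did not show this lean in the group medians. These were 6501 CPM in CONHC against 6336 CPM in CONLC, and 6444 CPM in GLYHC against 5747 CPM in GLYLC. The means of the sums were 6212 against 6419 CPM and 6316 against 6290 CPM, in the same order.

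The lean in the GLY groups rested on single cows. Without GLYLC cow 209, 32 of 88 members were below 0 in GLYHC versus GLYLC (50.6% of all genes) and the median was 0.03. Below 0 in both CFP comparisons were then 28 of 88 members, near the share of 30.4% over all genes. Without GLYLC cow 102 the count in GLYHC versus GLYLC was 71 of 89 and the median -0.09, and without GLYLC cow 912 it was 67 of 88 with -0.06. In CONHC versus CONLC the count ran from 61 (median -0.04, without CONHC cow 41) to 78 (median -0.13, without CONHC cow 123) of 89, and in HC versus LC from 57 of 88 (median -0.03, without GLYLC cow 209) to 75 of 89 (median -0.09, without GLYLC cow 102). Members of one pathway share cows and are not independent, and no test was made of these counts.

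For glyphosate, 46 of 89 members were below 0 in GLYHC versus CONHC (48.3% of all genes) and 64 in GLYLC versus CONLC (50.6% of all genes), with medians of 0.00 and -0.03. In GLY versus CON it was 58 of 89 (48.5% of all genes), with a median of -0.01. These counts, too, moved with 1 cow. The first ran from 20 (without CONHC cow 123) to 60 (without CONHC cow 41) of 89, and the second from 39 of 89 (without CONLC cow 166) to 83 of 88 (without GLYLC cow 209).

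Complex I, the entry point for electrons from NADH, is the largest complex. Its 37 genes summed to 1167, 1478 and 1658 CPM (lowest, median and highest cow) in CONHC and to 1348, 1468 and 1705 CPM in CONLC. In GLYHC the sums were 1321, 1455 and 1561 CPM, and in GLYLC 1184, 1362 and 1928 CPM. The 4 groups overlapped over most of their range, and the highest value belonged to GLYLC cow 209.

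**Figure D2:**
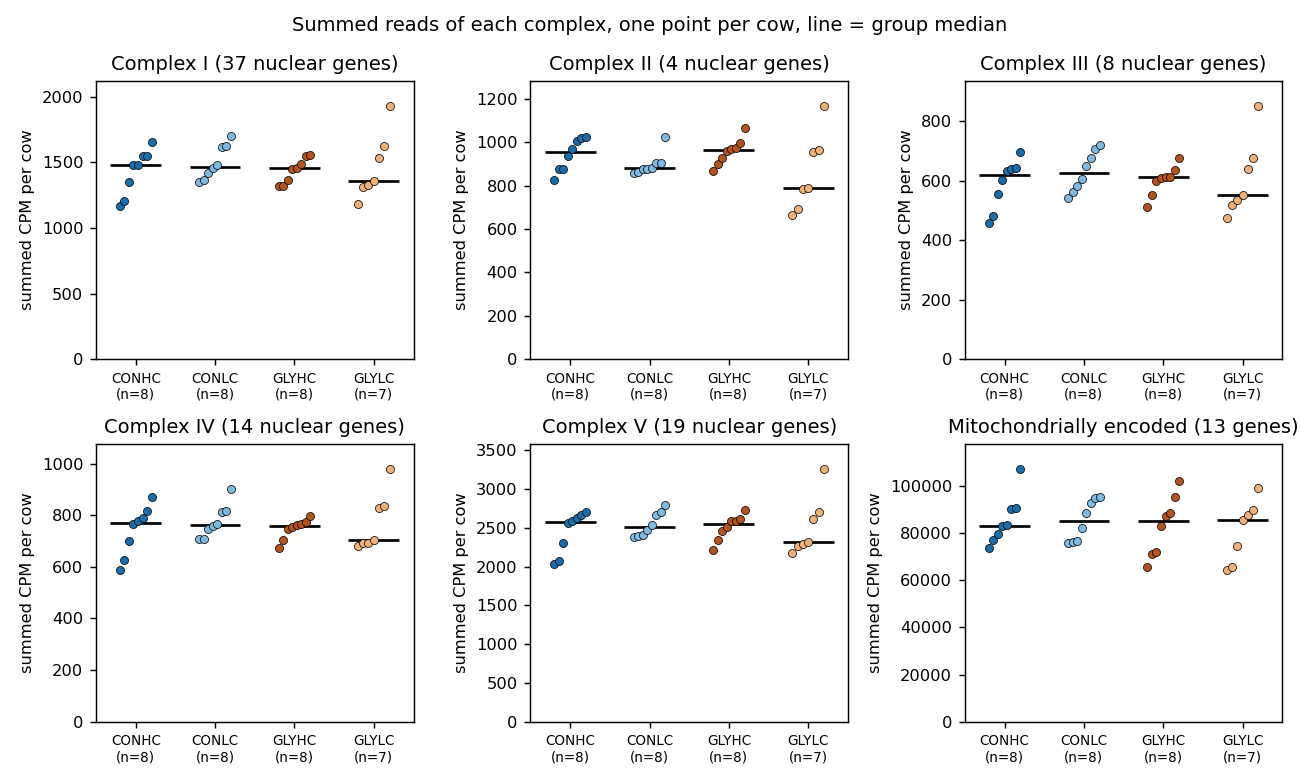
Summed CPM of the genes of each complex (y axis, from 0) in each cow by feeding group (x axis, n = 8, 8, 8 and 7), with the group median as a line. The groups overlap in every panel, the highest cow of complexes I to V is in GLYLC, and complex II has medians of 954 and 963 CPM in the HC groups against 879 and 790 CPM in the LC groups. In complexes I, IV and V, too, each HC median lies above the LC median of the same treatment, and in complex III only that of GLYHC does.

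*NDUFB4* (ENSBTAG00000015892), an accessory subunit of the membrane arm, came closest to a call. Its levels were 21.3, 28.5 and 34.7 CPM in CONHC, 23.5, 32.6 and 36.8 CPM in CONLC, 19.2, 26.5 and 29.9 CPM in GLYHC and 24.8, 31.2 and 42.2 CPM in GLYLC (lowest, median, highest cow). Both HC medians lay under both LC medians, with overlapping cows. The log2 fold change was -0.25 (SE 0.08, edgeR adjusted p = 0.132) in HC versus LC, -0.30 (SE 0.11, adjusted p = 0.277) in GLYHC versus GLYLC and -0.21 (SE 0.11, adjusted p = 0.847) in CONHC versus CONLC. In HC versus LC it passed with DESeq2 on all cows (adjusted p = 0.0881) and in edgeR without GLYLC cow 102 (0.0921), CONHC cow 123 (0.0970) or CONLC cow 169 (0.0777).

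*NDUFB10* (ENSBTAG00000009534), another accessory subunit of the membrane arm, had the smallest p of the members in CONHC versus CONLC. Levels were 25.6, 29.6 and 38.0 CPM in CONHC, 30.5, 35.5 and 44.1 CPM in CONLC, 26.8, 29.2 and 32.2 CPM in GLYHC and 24.5, 30.8 and 41.4 CPM in GLYLC. CONLC was the group with the highest median, and its lowest cow lay above the medians of CONHC and GLYHC. The log2 fold change was -0.24 (SE 0.10, edgeR adjusted p = 0.750) in CONHC versus CONLC, -0.11 (SE 0.10, adjusted p = 0.684) in GLYHC versus GLYLC and -0.18 (SE 0.10, adjusted p = 0.938) in GLYLC versus CONLC.

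Of the other complex I subunits, *NDUFB9*, *NDUFV2* and *NDUFAB1* had an unadjusted p under 0.05 in HC versus LC, the last 2 named after their values were seen. *NDUFB9*, a membrane arm subunit, had a log2 fold change of -0.15 (SE 0.06, edgeR adjusted p = 0.239). *NDUFV2*, which holds an iron-sulfur cluster near the NADH site, had -0.14 (SE 0.07, adjusted p = 0.351), and *NDUFAB1*, the mitochondrial acyl carrier protein, had -0.15 (SE 0.07, adjusted p = 0.360). None of them was called. With *NDUFB4* and *NDUFB10* this made 5 of the 37 complex I genes with p under 0.05 in HC versus LC, each lower in HC, where 7.81% of all genes were lower at that p.

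**Figure D3:**
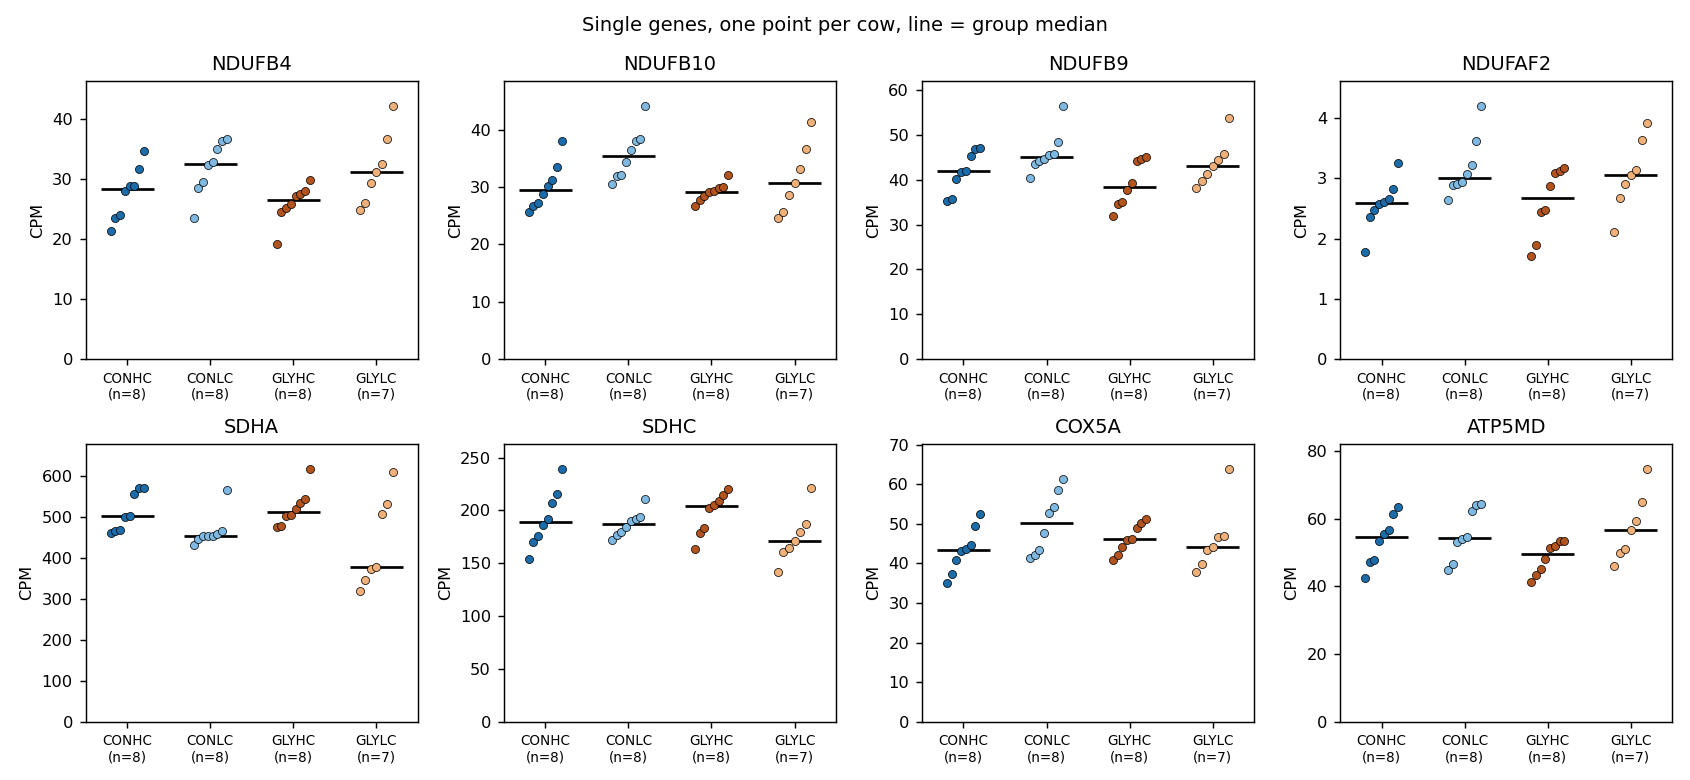
CPM (y axis, from 0) of 8 members in each cow by feeding group (x axis, n = 8, 8, 8 and 7), with the group median as a line. The HC and LC cows overlap for each gene, both HC medians lie under both LC medians for NDUFB4, and 4 of 7 GLYLC cows lie under 380 CPM for SDHA.

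The 7 genes of the catalytic core of complex I carry the flavin and the iron-sulfur clusters, and none of them was called in edgeR. In CONHC versus CONLC 7 of 7 had a log2 fold change below 0 (median -0.15), and in GLYHC versus GLYLC 2 of 7 (median 0.06). The interaction was below 0 for 0 of 7 (48.3% of all genes), with a median of 0.14, and 0 of 7 reached an unadjusted p under 0.05 in it. Without GLYLC cow 102, 5 of 7 were below 0 in GLYHC versus GLYLC, the side on which they lay in CONHC versus CONLC. The 30 accessory subunits had 24 below 0 in either CFP comparison, with medians of -0.09 and -0.08.

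*NDUFS6*, an accessory subunit that binds zinc, had the fewest reads of complex I and medians of 12.5, 11.9, 11.4 and 14.0 CPM in CONHC, CONLC, GLYHC and GLYLC. *NDUFV3*, an accessory subunit beside the NADH site, varied least of all members, with a coefficient of variation (CV) between cows of a group of 7.49% and a log2 fold change of -0.03 (95% interval -0.12 to 0.05) in HC versus LC.

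The 7 assembly factors build complex I and are not part of the finished enzyme. Of these, *NDUFAF2*, a chaperone of late assembly, had 1.78, 2.59 and 3.26 CPM in CONHC, 2.64, 3.0 and 4.19 CPM in CONLC, 1.71, 2.67 and 3.17 CPM in GLYHC and 2.11, 3.05 and 3.92 CPM in GLYLC. Its log2 fold change was -0.31 (SE 0.14, edgeR adjusted p = 0.802) in CONHC versus CONLC, -0.24 (SE 0.15, adjusted p = 0.520) in GLYHC versus GLYLC and -0.28 (SE 0.10, adjusted p = 0.199) in HC versus LC. Each CONLC cow lay above the CONHC median, and the groups overlapped. *NDUFAF6*, which had the third smallest p of the members in the interaction, showed a log2 interaction of -0.19 (SE 0.12, adjusted p = 0.999).

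Complex II (succinate dehydrogenase) also works in the citric acid cycle, and the median log2 fold change of its genes was not below 0 in either CFP comparison. Its 4 genes summed to 823, 954 and 1024 CPM in CONHC, 860, 879 and 1025 CPM in CONLC, 868, 963 and 1064 CPM in GLYHC and 663, 790 and 1165 CPM in GLYLC. GLYLC spanned both the lowest and the highest cow of the study. In GLYHC versus GLYLC the 4 genes had a median log2 fold change of 0.13, and in CONHC versus CONLC of 0.01. Higher group medians of the sums in HC were not particular to complex II. In both CFP comparisons they also occurred in complexes I, IV and V.

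*SDHA* (ENSBTAG00000046019), the flavoprotein that oxidises succinate, was at 463, 503 and 573 CPM in CONHC and 431, 455 and 566 CPM in CONLC. It was at 476, 513 and 618 CPM in GLYHC and 321, 379 and 612 CPM in GLYLC. In GLYLC, *SDHA* stood at 321, 347, 374 and 379 CPM in cows 102, 912, 905 and 544 and at 509, 533 and 612 CPM in cows 147, 42 and 209, so this group held both cows below and cows inside the range of the others. The log2 fold change was 0.25 (SE 0.11, edgeR adjusted p = 0.321) in GLYHC versus GLYLC, 0.14 (SE 0.10, adjusted p = 0.940) in CONHC versus CONLC and 0.19 (SE 0.07, adjusted p = 0.222) in HC versus LC. In GLYHC versus GLYLC the *SDHA* value was 0.35 (adjusted p = 0.114) without cow 209, 0.20 (adjusted p = 0.637) without cow 912 and 0.19 (adjusted p = 0.47) without cow 102.

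The other 3 genes of the complex showed no common direction. *SDHC*, a membrane anchor, had a log2 fold change of 0.17 (SE 0.09, edgeR adjusted p = 0.445) in GLYHC versus GLYLC and *SDHD*, the other membrane anchor, of 0.09 (SE 0.08, adjusted p = 0.680). *SDHB*, the iron-sulfur subunit, had -0.11 (SE 0.10, adjusted p = 0.697). GLYLC cow 912 was the lowest of its group in *SDHB* (118 CPM), *SDHC* (141 CPM) and *SDHD* (56.1 CPM), and cow 209 the highest in each. The part of the haptoglobin and marker levels of cow 912, given above, in these values was not tested.

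Complex III passes electrons from ubiquinol to cytochrome c. Without *CYC1*, a subunit that the symbol rule leaves out, the 8 genes of the complex summed to 457, 617 and 696 CPM in CONHC and 542, 627 and 719 CPM in CONLC. In GLYHC they summed to 511, 611 and 676 CPM and in GLYLC to 474, 550 and 850 CPM, with broad overlap. Of these, 8 of 8 were below 0 in CONHC versus CONLC (median -0.10), and in GLYHC versus GLYLC 6 of 8 (median -0.03).

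*UQCRC1* (ENSBTAG00000019096), a core protein on the matrix side, was among the members with the smallest p in GLYHC versus CONHC and in the interaction. Its levels were 79.9, 105 and 120 CPM in CONHC, 97.8, 113 and 125 CPM in CONLC, 97.5, 114 and 131 CPM in GLYHC and 67.6, 98.4 and 146 CPM in GLYLC. Its log2 fold change was 0.16 (SE 0.10, edgeR adjusted p = 1.0) in GLYHC versus CONHC, and the interaction was 0.25 (SE 0.15, adjusted p = 0.999), with 0.16 without GLYLC cow 102 and 0.34 without GLYLC cow 209. *UQCRC2*, the other core protein, differed by -0.02 (95% interval -0.17 to 0.13) in HC versus LC, and *UQCR11*, a small accessory subunit with the fewest reads of the complex, by -0.13 (-0.35 to 0.08).

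Complex IV (cytochrome c oxidase) reduces oxygen, and several of its subunits exist as isoforms made in different tissues. The 14 genes summed to 589, 771 and 870 CPM in CONHC, 707, 763 and 902 CPM in CONLC, 673, 759 and 797 CPM in GLYHC and 680, 705 and 979 CPM in GLYLC. The groups overlapped, and 6 of the 7 common isoforms were below 0 in CONHC versus CONLC and 4 of 7 in GLYHC versus GLYLC.

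*COX5A* (ENSBTAG00000017267), a common subunit on the matrix side, was at 35.0, 43.4 and 52.6 CPM in CONHC, 41.3, 50.2 and 61.4 CPM in CONLC, 40.8, 46.1 and 51.2 CPM in GLYHC and 37.7, 44.1 and 63.9 CPM in GLYLC. It had a log2 fold change of -0.21 (SE 0.10, edgeR adjusted p = 0.808) in CONHC versus CONLC and of 0.00 (SE 0.10, adjusted p = 0.993) in GLYHC versus GLYLC. The interaction was 0.22 (SE 0.15, adjusted p = 0.999), and GLYLC cow 209 lay far above the next cow of its group (46.8 CPM).

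The isoforms that liver is known to use had CVs of at most 17.4% (*COX7B*), against a median of 15.4% over the members. *COX4I1*, the common form of the largest nuclear subunit, had medians of 154, 164, 158 and 146 CPM in CONHC, CONLC, GLYHC and GLYLC and a CV of 9.13%. For *COX6A1*, the non-muscle form of its subunit, the log2 fold change in HC versus LC was 0.01 (95% interval -0.12 to 0.14). It was -0.13 (-0.29 to 0.03) for *COX7A2*, the non-muscle form of another subunit, and -0.15 (-0.34 to 0.03) for *COX7B*. *NDUFA4*, once counted to complex I and now to complex IV, differed by -0.10 (-0.23 to 0.04), and *COX7A2L*, which joins complexes III and IV into larger units, by 0.01 (-0.13 to 0.16).

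The isoforms of muscle and other tissues were the least steady members. Within groups the median CV was 15.4% over the members and 23.7% over all genes tested, and 6 members exceeded 50%, each in complex IV. These were *COX6A2* (232%), *COX8B* (182%), *COX4I2* (182%), *COX6B2* (147%), *COX7A1* (99.7%) and *NDUFA4L2* (77.9%). *COX4I2*, a form known from lung, *COX6B2*, known from testis, and *NDUFA4L2*, a hypoxia-induced relative of *NDUFA4*, had 31, 21 and 27 reads in total over the 31 cows, so that their group differences have wide intervals. *NDUFA4L2* had one of the 3 smallest p of the members in GLYLC versus CONLC, with a log2 fold change of 0.99 (95% interval -0.30 to 2.28, edgeR adjusted p = 0.960), and in the interaction, with -1.53 (-3.43 to 0.38, adjusted p = 0.999).

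*COX6A2*, *COX7A1* and *COX8B* are the isoforms of skeletal and heart muscle. *COX6A2* had 7.39, 4.73, 2.80 and 1.63 CPM in CONLC cow 166, GLYHC cow 127, CONHC cow 123 and CONLC cow 103, and at most 0.797 CPM in the other 27 cows, 10 of which had 0 reads. *COX8B* had 13.1, 7.22, 5.53 and 3.87 CPM in the same cows, and *COX7A1* had 12.7, 7.87, 6.57 and 4.60 CPM. These were the 4 cows with the highest summed muscle markers, and they came from 3 feeding groups. The exception was GLYLC cow 912, with 6.28 CPM of *COX8B* and 4.35 CPM of *COX7A1* at 393 CPM of the muscle markers and, as given above, the highest smooth muscle and intestinal markers. Beyond a fit without cows 166, 127, 123 and 103, given below for *COX6A2*, the part of these markers in the group differences was not tested.

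**Figure D4:**
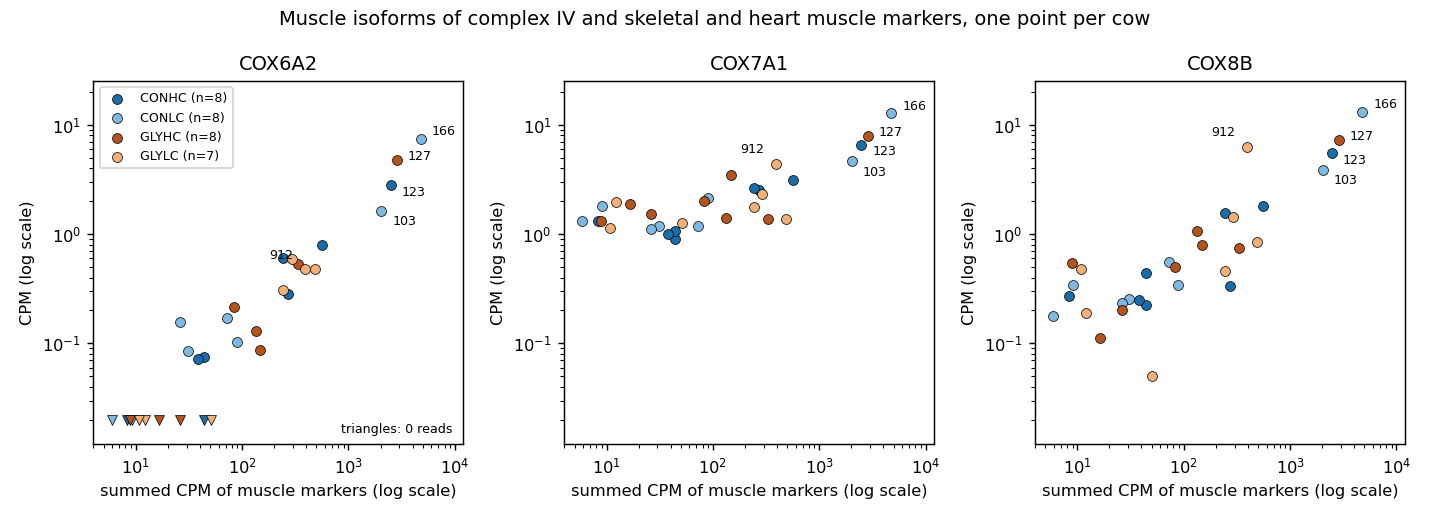
CPM of COX6A2, COX7A1 and COX8B (y axis, log scale) against the summed CPM of 14 skeletal and heart muscle markers (x axis, log scale), 1 point per cow, coloured by feeding group, with 0 reads as triangles. Cows 166, 127, 123 and 103 lie at the upper right of each panel, and cow 912 lies above the other cows of like marker sum for COX8B.

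Group comparisons of these isoforms were unstable. *COX6A2* had a log2 fold change of -2.13 (SE 1.23, edgeR adjusted p = 0.949) in GLYLC versus CONLC, which was -0.09 without CONLC cow 166 and 1.59 (adjusted p = 0.929) without the 4 cows with over 1000 CPM of muscle markers. With all cows in the model, DESeq2 gave -0.12 (adjusted p = 1.0) for the same difference. It was run at its default settings, which can replace outlying counts, and whether the count of cow 166 was replaced was not checked. In CONHC versus CONLC it was -1.07 (95% interval -3.37 to 1.24) for *COX6A2*, -0.89 (-2.81 to 1.04) for *COX8B* and -0.46 (-1.5 to 0.58) for *COX7A1*. These intervals are wide, include changes in either direction and reach further below 0 than above it.

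Complex V (ATP synthase) couples the proton gradient to ATP synthesis. Its 19 genes summed to 2036, 2580 and 2711 CPM in CONHC, 2384, 2506 and 2798 CPM in CONLC, 2216, 2552 and 2734 CPM in GLYHC and 2182, 2313 and 3261 CPM in GLYLC. The 4 groups overlapped. Of these, 18 of 19 were below 0 in CONHC versus CONLC, but by little (median -0.05), and in GLYHC versus GLYLC 15 of 19 (median -0.04).

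*ATP5F1B* (ENSBTAG00000013315), the catalytic subunit of the F1 head, was at 453, 511 and 579 CPM in CONHC, 458, 526 and 551 CPM in CONLC, 507, 548 and 654 CPM in GLYHC and 407, 544 and 646 CPM in GLYLC. Its difference was 0.12 (SE 0.08, edgeR adjusted p = 1.0) in GLYHC versus CONHC and 0.03 (95% interval -0.08 to 0.14) in HC versus LC. *ATP5F1A*, the other large subunit of the head, named after its values were seen, differed by -0.02 (-0.14 to 0.09) in HC versus LC.

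*ATP5MD* (ENSBTAG00000009713), a small membrane subunit, was the third member with p under 0.05 in GLYHC versus GLYLC. It was at 42.4, 54.6 and 63.4 CPM in CONHC, 44.9, 54.4 and 64.4 CPM in CONLC, 41.3, 49.8 and 53.6 CPM in GLYHC and 46.2, 56.6 and 74.7 CPM in GLYLC. The log2 fold change was -0.25 (SE 0.10, edgeR adjusted p = 0.310) in GLYHC versus GLYLC and -0.05 (SE 0.10, adjusted p = 0.990) in CONHC versus CONLC. GLYHC was the group with the lowest median, and its cows overlapped with those of the other groups.

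The c-ring, which rotates with proton flow, is encoded by 3 genes for the same mature protein. *ATP5MC1* differed by -0.10 (95% interval -0.27 to 0.08), *ATP5MC2* by -0.06 (-0.16 to 0.04) and *ATP5MC3* by -0.13 (-0.31 to 0.05) in HC versus LC. *ATP5MC2* had a CV of 8.46%, the second smallest of the members. *ATP5IF1*, the inhibitor that stops ATP hydrolysis when the gradient is lost, had medians of 57.9, 58.4, 58.4 and 55.2 CPM in CONHC, CONLC, GLYHC and GLYLC and differed by 0.02 (-0.15 to 0.18). *ATP5S*, a related protein and not a stable subunit, had the fewest reads of the complex and differed by 0.14 (-0.03 to 0.31).

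Single cows were high or low in nearly all members at once. Leaving out the 6 low and unsteady isoforms, GLYLC cow 209 had 81 of 83 members above their median of all cows, by 0.41 on the log2 scale in the median. CONHC cow 41 had 82 of 83 members below it, with a median of -0.35, and CONHC cow 7 had 78 below it, with -0.29. Cow 209 was the highest of all cows for 52 of the 85 members with reads in every cow (61.2%), against 4.61% of all genes tested, and cow 41 the lowest for 22. In cow 209 the mitochondrial ribosomal proteins lay 0.33 and the cytosolic ribosomal proteins 0.19 above their medians, and in cow 41 they had -0.25 and -0.37. The libraries of these cows held 36675542 (the deepest), 14084679 and 29881860 reads, in the order 209, 41 and 7, and the part of depth was not tested.

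**Figure D5:**
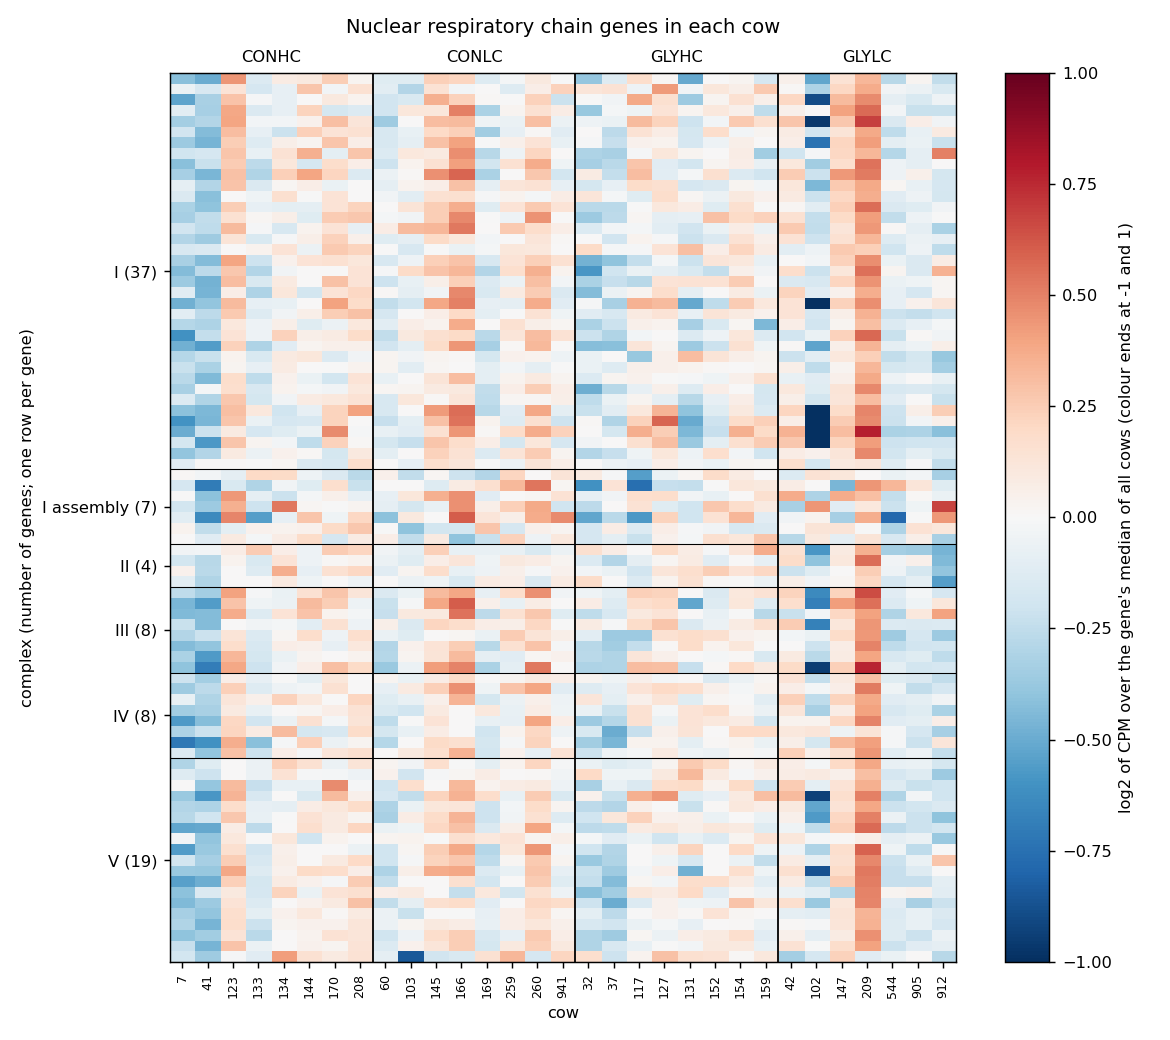
Log2 of CPM over the median of all cows for 83 members (rows, ordered by complex and symbol, 1 row per gene) in each cow (columns, by feeding group), in red where above and blue where below the median. Cow 209 of GLYLC is red and cows 7 and 41 of CONHC are blue over nearly all rows, whereas cow 102 of GLYLC is dark blue in some rows of complexes I, III and V.

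GLYLC cow 102 differed in another way, since it was low in some members of several complexes and not in others. In it, 19 of 83 members lay over 0.5 below their median on the log2 scale, against at most 10 in any other cow. The lowest, named after their values were seen, were *NDUFB7* (-1.35), *NDUFS7* (-1.22), *NDUFS8* (-1.11), *NDUFV1* (-1.02) *NDUFS6* (-1.0) and *NDUFA13* (-0.97) of complex I, *UQCRQ* (-0.94) of complex III and *ATP5F1D* (-0.93) of complex V. In other cows *NDUFB7*, *NDUFS7* and *NDUFS8* were low to a lesser degree, with -0.51, -0.50 and -0.44 in GLYHC cow 131, -0.48, -0.60 and -0.50 in CONHC cow 7 and -0.39, -0.45 and -0.22 in CONHC cow 41. Cow 209 was high in them, with 0.46, 0.47 and 0.78 in the same order. Cow 102 had 20115399 reads, near the middle of the cows.

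The subunits encoded by the mitochondrial DNA did not share the lean of the nuclear ones. The 13 genes took 6.45% to 10.5% of the reads of a cow, with medians of 83252, 85416, 85244 and 85804 summed CPM in CONHC, CONLC, GLYHC and GLYLC. In GLYLC the sums ran from 64285 CPM (cow 912) to 99287 CPM (cow 102). The counts that follow were not repeated with single cows left out. Below 0 were 5 of 13 in CONHC versus CONLC (median 0.00), and in GLYHC versus GLYLC 2 of 13 (median 0.18), with 0 called in edgeR in either, and 0 and 2 at an unadjusted p under 0.05, both of the 2 higher (5.06% of all genes). In HC versus LC 3 of 13 were below 0 (median 0.11), 0 were called, and 2 were higher at that p (5.88% of all genes), *ND4* with 0.23 (SE 0.10, edgeR adjusted p = 0.265) and *ND2* with 0.21 (SE 0.09, adjusted p = 0.282), both membrane subunits of complex I. The mitochondrially encoded genes singled out here were named after their values were seen. *ND3*, a membrane subunit of complex I, had a log2 fold change of 0.36 (SE 0.16, edgeR adjusted p = 0.340) in GLYHC versus GLYLC and 0.32 (SE 0.15, adjusted p = 1.0) in GLYHC versus CONHC. *ATP8*, a membrane subunit of complex V, had 0.36 (SE 0.17, adjusted p = 0.370) in GLYHC versus GLYLC.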

How the data were processed

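The authors extracted total RNA, prepared stranded mRNA libraries, sequenced paired ends, trimmed with Trim Galore after FastQC, aligned to the UMD3.1 build with HISAT2 2.1.0 and counted with HTSeq 0.8.0. The strand setting of the counting was not given in the sources used here, so a gene and an overlapping one on the other strand may not be told apart, nor may members and near-identical copies elsewhere in the genome. The authors deposited raw counts of 24616 genes in 31 cows, which were the values used, and a normalized table, which was not used.

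Libraries were grouped by their labels. The replicates are cows: the chi-square per gene was 24.5 to 487 over the 105 pairs of the same group, so no library was a copy of another of its group. Pairs across groups were not compared. Levels are CPM (reads scaled to the same library total) with TMM scaling, which can be compared between cows but not between genes, since no transcript lengths were used. Differences were tested in R 4.3.3 with edgeR 4.0.16 (quasi-likelihood F test, 15916 genes with at least 20 reads summed over cows, Benjamini-Hochberg adjustment). The model held the 4 groups, and additive models gave HC versus LC and GLY versus CON. SE and 95% intervals come from that test. It was tested on simulated data. Depth was 11675775 to 36675542 reads per cow, and intervals cover the spread between these cows.

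Genes named are those with the 3 smallest p per comparison, the highest and lowest of each complex by reads, isoforms, c-ring and inhibitor, the complex II genes, the largest and smallest CV, and genes of the other lists that were called. One gene that this rule names is not reported here. Further genes are marked as named after their values were seen. The members and the lists (mitochondrially encoded subunits, other assembly factors, electron carriers and ubiquinone synthesis, carriers and uncoupling proteins, regulators, ribosomal proteins and cell type markers) were chosen with earlier results of these data known. Alternatives were RLE and upper-quartile scaling, no filter, filterByExpr with at least 10 reads, a robust fit, an adjusted p under 0.05, only the groups compared, DESeq2 1.42.0 with all cows and with only the groups compared, and each cow left out. One without 4 cows rich in muscle markers was chosen after seeing the data.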

Additional observations from a re-analysis of the deposited data

Results flagged for a closer look

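Of 172 sets of cows examined (each named gene or complex in each feeding group), 17 held a cow far from the others by Dixon's criterion at the 95% level, and chance flags about 1 in 20 groups. Complex II in CONLC was highest in cow 145, with a sum of 1025 CPM against 906 CPM in the next cow, and *SDHA* in the same cow stood at 566.2 CPM against 466.6 CPM. *COX5A* in GLYLC stood at 63.88 CPM in cow 209 against 46.84 CPM. *ATP5F1B* in CONLC was lowest in cow 103, with 458.3 CPM against 512.0 CPM, and *NDUFAF6* in GLYLC was lowest in cow 544, with 7.364 CPM against 9.071 CPM.

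The other 12 were isoforms of complex IV. *COX6A2* was highest in CONHC cow 123 (2.796 CPM), CONLC cow 166 (7.392 CPM) and GLYHC cow 127 (4.727 CPM). *COX7A1* was highest in the same cows (6.568, 12.7 and 7.869 CPM) and in GLYLC cow 912 (4.345 CPM). *COX8B* was highest in these 4 cows as well (5.528, 13.13, 7.223 and 6.281 CPM in the order 123, 166, 127, 912). *COX4I2* stood at 0.3932 CPM (10 reads) in CONLC cow 166. The summed muscle markers of cows 123, 166 and 127 were 2485, 4764 and 2869 CPM and those of cow 912 were 393 CPM, and their part in these values was not tested.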

How the results depend on the processing

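The count of members called stayed at 0 in the pairwise comparisons, the interaction and GLY versus CON under each alternative that was run. In HC versus LC it was 1 with DESeq2 on all cows and between 0 and 1 with each cow left out, where *NDUFB4* passed without GLYLC cow 102, CONHC cow 123 or CONLC cow 169; the cause was not tested. The median log2 fold change over the members ran with each cow left out from -0.13 to -0.04 in CONHC versus CONLC, from -0.09 to 0.03 in GLYHC versus GLYLC, from -0.04 to 0.04 in GLYHC versus CONHC and from -0.10 to 0.01 in GLYLC versus CONLC. The sign of the last 3 thus depends on single cows. Of the gene values, *COX6A2* in GLYLC versus CONLC reversed from -2.13 to 1.59 without the 4 cows rich in muscle markers. With DESeq2 at its default settings, which can replace outlying counts, it was -0.12, both with all cows and with only the groups compared in the model. *UQCRC1* in the interaction ran from 0.16 (without GLYLC cow 102) to 0.34 (without GLYLC cow 209) around 0.25, and *ATP5F1B* in GLY versus CON from 0.04 (without GLYLC cow 209) to 0.10 (without GLYLC cow 912) around 0.07. No paired analysis was possible because each cow number occurs in 1 group. Depth limits *COX4I2*, *COX6B2* and *NDUFA4L2*, and a p that misses the threshold does not show that levels were equal.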

Other observations

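Genes of the respiratory chain that the symbol rule leaves out held 0 calls in edgeR in each comparison. Most are not subunits, but *CYC1*, in the list of electron carriers, encodes the cytochrome c1 subunit of complex III. Of 34 other assembly factors, 4 were lower and 2 higher at an unadjusted p under 0.05 in GLYHC versus GLYLC (7.45% and 5.06% of all genes), among them *ACAD9*, an assembly factor of complex I (log2 fold change 0.39, SE 0.18, edgeR adjusted p = 0.371), and *TMEM70*, an assembly factor of ATP synthase (-0.22, SE 0.10, adjusted p = 0.370). The 16 genes of electron carriers and ubiquinone synthesis had 12 below 0 in CONHC versus CONLC (median -0.09), with *COQ8A*, a kinase-like protein of ubiquinone synthesis, at -0.30 (SE 0.15, adjusted p = 0.817). The 6 tested carriers and uncoupling proteins had 0 at that p. These genes were named after their values were seen.

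Among 18 regulators, *PPARGC1A*, a coactivator of mitochondrial gene expression, had an interaction of GLY with CFP of 0.63 (SE 0.24, edgeR adjusted p = 0.999) and a log2 fold change of -0.37 (SE 0.17, adjusted p = 0.849) in GLYLC versus CONLC. *TWNK*, the helicase of mitochondrial DNA, differed by 0.30 (SE 0.10, adjusted p = 0.521) in GLYLC versus CONLC. Both were named after their values were seen.

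Ribosomal proteins also leaned to lower levels in HC. In HC versus LC, where 54% of all genes were below 0 and 1.45% were called, 70 of 78 mitochondrial ribosomal proteins were below 0 (median -0.07) with 0 called, and 74 of 80 cytosolic ones (median -0.07) with 2 called lower, *RPL37A* and *RPS4Y1*. In GLYHC versus GLYLC the medians were -0.09 and -0.10, against -0.01 over all genes. These values were not repeated with single cows left out, and as given above, cow 209 lay high and cow 41 low in both lists.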
